A study of Homo sapiens with 6 samples.

Results

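The metallothioneins examined here are 9 genes of the human MT1, MT2 and MT3 groups in THP-1, a cell line grown from a monocytic leukaemia. They were measured on 6 Affymetrix arrays before and after differentiation with the phorbol ester PMA. Members were taken by gene name, as every probe set that carries 1 symbol and that symbol is MT1A, MT1B, MT1E, MT1F, MT1G, MT1H, MT1M, MT1X, MT2A or MT3. The family itself was chosen on the difference between the 2 groups, with earlier results of these arrays known, so that difference is given for the members as a description. Counts of members past a threshold restate that choice and are no test of it. The rule found 11 probe sets, for 9 of the 10 listed genes, among 19460 probe sets with 1 symbol. MT2A had 3 of them and 8 genes had 1 each. No probe set carried MT1A alone, so MT1A has no value here.

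PMA-differentiated cells received 200 nM PMA for 3 days and were then rested for 3 days without it (3 arrays), and unstimulated cells received none (3 arrays). Both groups were the same line, grown in RPMI with 10% FBS, 2.5 mM glutamate and 0.05 mM mercaptoethanol. The labels do not state that the 3 arrays of a group were separate cultures. A p-value here therefore reflects array-to-array spread, and that spread may be technical. Values are the authors' deposited log2 values, 1 per probe set and array, and a difference of 1 on this scale is a 2-fold change. The array medians lay between 6.10 and 6.25. All 10 measured markers of the monocyte and macrophage lineage lay above the upper quartile of every array of each group by their group means, while 1 of 24 markers of T, B, erythroid, epithelial, fibroblast and endothelial cells did so (PECAM1, which monocytes also carry). Arrays correlated at 0.988 to 0.995 within a group and at 0.958 to 0.968 between groups. PMA replicate 3 and unstimulated replicate 1 stood farthest from the rest of their groups, with quality weights of 0.550 and 0.449 in limma against 1.10 to 1.84 for the other 4 arrays.

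Metallothioneins are very small cytosolic proteins rich in cysteine, whose thiols hold zinc and copper and also bind cadmium. Many of their genes, though not all alike, are transcribed through metal response elements, short promoter motifs bound by the zinc-sensing transcription factor MTF1. Many also respond to glucocorticoids and oxidative stress. In macrophages metallothioneins are known as part of the handling of zinc and copper during infection and inflammation. Most of the genes lie side by side in a cluster on chromosome 16 as near-identical copies, so probes designed for one can catch RNA of another. MT2A is the widely expressed human MT2 gene, the MT1 genes are a set of recent copies, and MT3 is best known from the brain.

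The promoter windows of 4 members were held in the RefSeq table (MT2A, MT1B, MT1H and MT1X, build GRCh38.p14), and they are shown because the metal response element is the feature that these genes are known to share. Each window runs from 250 bases before the gene's start to 50 after it, 5′ to 3′ on the plus strand. MT2A lies at chr16:56608334-56608633, MT1B at chr16:56651636-56651935, MT1H at chr16:56669564-56669863 and MT1X at chr16:56682220-56682519. Capitals mark every match to the core letters of the metal response element, TGCACNC or TGCGCNC, on either strand. No 2 matches overlapped in these windows.
MT2A: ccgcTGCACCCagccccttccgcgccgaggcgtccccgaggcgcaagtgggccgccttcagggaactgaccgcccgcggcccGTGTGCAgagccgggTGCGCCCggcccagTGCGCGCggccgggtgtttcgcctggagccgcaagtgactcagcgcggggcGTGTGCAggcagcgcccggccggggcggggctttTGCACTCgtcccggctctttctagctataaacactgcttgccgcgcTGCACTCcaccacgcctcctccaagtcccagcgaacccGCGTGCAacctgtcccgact
MT1H: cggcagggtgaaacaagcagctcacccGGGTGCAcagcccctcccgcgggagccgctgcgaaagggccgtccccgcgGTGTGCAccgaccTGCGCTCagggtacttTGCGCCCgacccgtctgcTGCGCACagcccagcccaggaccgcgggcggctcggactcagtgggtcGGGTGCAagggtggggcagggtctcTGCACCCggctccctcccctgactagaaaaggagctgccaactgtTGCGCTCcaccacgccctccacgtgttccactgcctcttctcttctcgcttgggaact
MT1X: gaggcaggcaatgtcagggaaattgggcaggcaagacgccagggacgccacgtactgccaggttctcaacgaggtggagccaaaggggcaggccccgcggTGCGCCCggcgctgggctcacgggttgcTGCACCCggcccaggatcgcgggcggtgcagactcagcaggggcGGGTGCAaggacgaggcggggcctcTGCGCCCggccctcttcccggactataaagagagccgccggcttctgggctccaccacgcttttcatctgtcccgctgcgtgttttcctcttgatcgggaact
MT1B: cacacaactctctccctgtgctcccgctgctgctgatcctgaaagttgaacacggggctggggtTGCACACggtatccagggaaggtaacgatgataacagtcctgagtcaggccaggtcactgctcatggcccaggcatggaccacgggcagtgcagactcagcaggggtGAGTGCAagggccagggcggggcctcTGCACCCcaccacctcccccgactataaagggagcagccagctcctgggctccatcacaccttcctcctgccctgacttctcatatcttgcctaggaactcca

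MT2A and MT1H each held 8 separate matches, MT1X held 4 and MT1B held 3. Among all 35116 windows of the table, 29.6% held at least 1 match, 1.63% at least 3, 0.339% at least 4 and 0.0171% at least 8. Those with at least 8 were 6 windows, MT2A and MT1H among them. The MT1B matches were all of the TGCACNC form, while MT1H and MT1X held equal numbers of both forms. All 4 windows held a plus-strand match at position −53 or −54 from the start and a minus-strand match between −88 and −78. The letters TATAAA stood at −29 in MT2A and at −30 in MT1B and MT1X and were not in the MT1H window. They were present in 7.33% of all windows. Aligned end to end, the windows were between 51.7% (MT1B and MT2A) and 62.8% (MT1H and MT1X) identical. A match of letters is a description of the window and says nothing of whether a factor was bound in these cells. MT1A, MT1E, MT1F, MT1G, MT1M and MT3 are named only.

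The question was how the metallothionein genes differed after differentiation with PMA. All 11 probe sets had a lower mean in PMA-differentiated cells on the deposited scale, by very different amounts, and MT1M alone turned positive under other scalings (0.017 by quantiles, 0.026 by medians, 0.0099 by cyclic loess). MT1E and MT1F were lower by more than 5-fold, MT1G by 3.08-fold and MT1X by 2.10-fold. MT1H, MT2A, MT3 and MT1B differed by less than 2-fold, and MT1M hardly at all. In 6 probe sets every PMA array lay below every unstimulated array (MT1E, MT1F, MT1G, MT1X, MT1H and MT3), and in 5 the groups overlapped. That pattern was present in 22.2% of all probe sets with 1 symbol.

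MT1E read 6.22, 6.96 and 5.65 on PMA replicates 1 to 3, against 9.23, 8.69 and 8.68 on unstimulated replicates 1 to 3. The groups stood 1.72 apart at their nearest arrays. The log2 difference, PMA-differentiated minus unstimulated, was −2.59 ± 0.31 (SE in the limma fit, n = 3 each), a 6.03-fold lower value. Only 86 of the 19460 probe sets had a more negative difference.

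MT1F, which lies between MT1B and MT1G in the cluster, read 8.25, 9.10 and 7.53 with PMA, against 11.03, 10.73 and 10.56 without. Its groups stood 1.45 apart, and the difference was −2.48 ± 0.35. In both of these genes PMA replicate 2 was the highest PMA array and PMA replicate 3 the lowest.

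MT1G read 7.80, 8.67 and 7.22 with PMA, against 10.15, 9.24 and 9.17 without, a difference of −1.62 ± 0.39. Unstimulated replicate 1 was the high array of its group. Without PMA replicate 3 and unstimulated replicate 1 together, the MT1G difference was −0.97.

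MT1X, the last gene of the cluster, read 7.86, 8.62 and 7.23 with PMA, against 9.43, 8.71 and 8.78 without. The difference was −1.07 ± 0.34, yet the nearest arrays of the groups were only 0.09 apart (PMA replicate 2 and unstimulated replicate 2). It was −0.51 without PMA replicate 3 and unstimulated replicate 1.

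MT1H read 5.87, 6.18 and 5.99 with PMA, against 7.11, 6.72 and 6.56 without. Its difference of −0.78 ± 0.16 was smaller than that of MT1G, but its PMA arrays lay closer together and the groups stood 0.38 apart. On 2 of the 6 arrays it lay below the array's median.

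**Figure D1:**
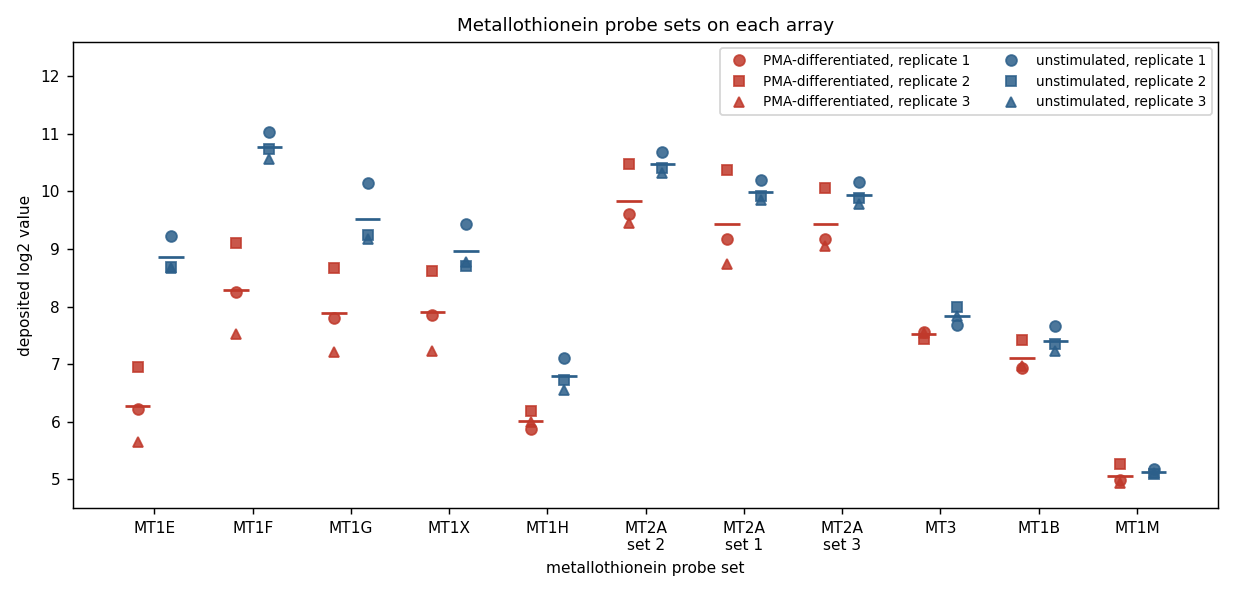
Deposited log2 values (vertical axis) of the 11 metallothionein probe sets, ordered by difference, with PMA-differentiated arrays in red on the left of each pair, unstimulated arrays in blue on the right, a symbol for each replicate number and a line at each group mean. MT1E and MT1F show a clear gap between the groups, whereas the squares of PMA replicate 2 lie level with or above unstimulated arrays in all 3 MT2A probe sets.

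The annotation gave MT2A 3 probe sets. Whether each of them reads the MT2A gene itself or a copy elsewhere was not tested, since probe positions were not used here. The first gave 9.18, 10.38 and 8.73 with PMA, against 10.20, 9.93 and 9.85 without. The second gave 9.60, 10.47 and 9.46 with PMA, against 10.69, 10.41 and 10.32 without. The third gave 9.17, 10.05 and 9.05 with PMA, against 10.16, 9.88 and 9.79 without. In each of them PMA replicates 1 and 3 lay below all unstimulated arrays, while PMA replicate 2 lay above unstimulated replicates 2 and 3, so the groups overlapped. The differences were −0.56 ± 0.37, −0.63 ± 0.26 and −0.52 ± 0.25. The 3 probe sets are not separate evidence, since their annotation shares 4 accession records, and after centring they differed by at most 0.35 on any array. Without PMA replicate 2 in the same order the differences were −1.04, −0.94 and −0.83, and without PMA replicate 3 they were −0.22, −0.43 and −0.33.

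MT3 read 7.56, 7.45 and 7.55 with PMA, against 7.68, 7.99 and 7.83 without, a difference of −0.32 ± 0.11. Its groups did not overlap and stood 0.12 apart. MT3 did not share the array order of the other members: PMA replicate 2 was its lowest PMA array and unstimulated replicate 1 its lowest unstimulated array.

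MT1B read 6.93, 7.42 and 6.97 with PMA, against 7.67, 7.35 and 7.22 without, a difference of −0.31 ± 0.17. PMA replicate 2 lay inside the unstimulated range. MT1M read 4.99, 5.28 and 4.94 with PMA, against 5.18, 5.09 and 5.11 without. It lay below the median of every array, and its difference of −0.06 ± 0.11 also turned to 0.005 without PMA replicate 3.

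Across the 11 probe sets the median log2 difference was −0.63 and the mean −0.99, beside a median of −0.03 over all 19460. MT2A counts 3 times in these values, and with 1 probe set a gene the mean was −1.10 over 9 genes. In the limma fit over all probe sets with 1 symbol, 4 members passed an adjusted p of 0.05, all lower in PMA-differentiated cells (MT1E, MT1F, MT1H and MT1G). The same direction and threshold took 13.3% of all probe sets, either direction took 26.1% and the higher direction 12.9%. The family was chosen on this contrast, so nothing is read from the members' count. Of all 5088 probe sets past the threshold, 49.2% were higher with PMA, and this share was 60.9% with each array centred on its median and 40.8% when every probe set of the table was tested. The members' count was 8 without PMA replicate 2, the array on which most members were highest in their group (9.63% of all probe sets then passed in that direction), and 3 to 5 without each of the other single arrays. Without PMA replicate 3 and unstimulated replicate 1, the 2 arrays that stood apart, the mean difference was −0.66. MT1H was then at −0.61, MT3 at −0.41, MT1B at −0.11 and the 3 MT2A probe sets at −0.11, −0.33 and −0.22.

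Within a group, most members were high or low on the same arrays, and MT2A counts 3 times among the 11 probe sets. PMA replicate 2 was the highest PMA array for 10 of 11 probe sets, with a median of 0.63 above the mean of its group, and the exception was MT3. Over all probe sets with 1 symbol that array was the highest in 29.2%. PMA replicate 3 was the lowest PMA array for 8 of 11 members (35.9% of all probe sets). Unstimulated replicate 1 was the highest unstimulated array for 10 of 11 (39.3% of all), with a median of 0.26 above its group's mean. The range over the PMA arrays was wider than that over the unstimulated ones for 9 of the 11 probe sets, and narrower for MT1H (0.31 against 0.55) and MT3 (0.11 against 0.31). MT1F covered 1.57 over the PMA arrays against 0.47 over the unstimulated ones, MT1G 1.45 against 0.98 and the first MT2A probe set 1.64 against 0.35. How much signal the probe sets of near-identical copies share was not tested, since probe sequences were not used here. Averaged over the 11 probe sets, the log2 values were 7.58, 8.23 and 7.30 with PMA, against 8.96, 8.61 and 8.53 without (means of 7.71 ± 0.48 with PMA and 8.70 ± 0.23 without, SD, n = 3 each).

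**Figure D2:**
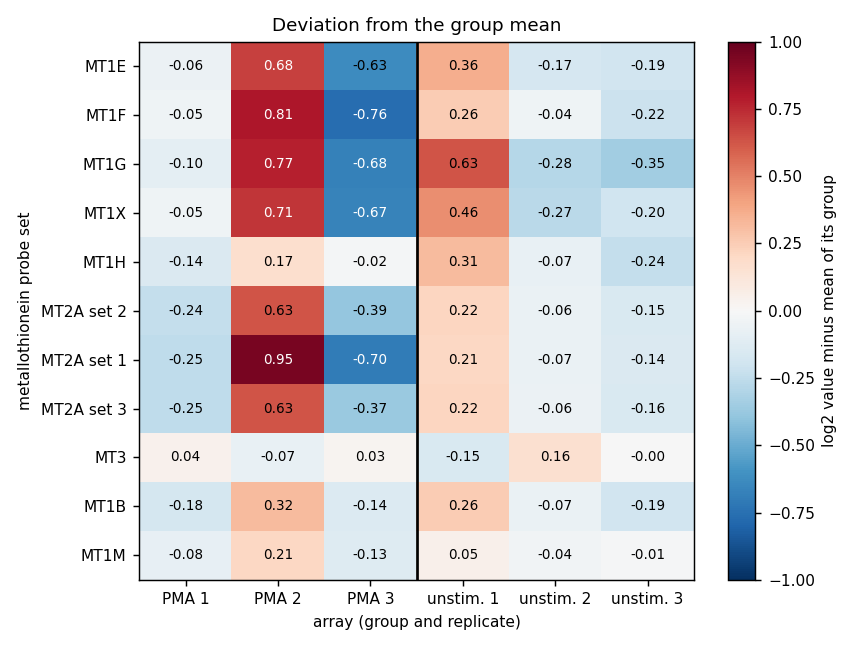
Deviation of each array's log2 value from the mean of its own group (colour and printed number), for the 11 metallothionein probe sets (rows) and 6 arrays (columns, PMA-differentiated left of the line and unstimulated right of it). PMA replicate 2 is above its group mean in every row except MT3, by up to 0.95 in MT2A, and unstimulated replicate 1 is above its group mean in the same rows.

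**Figure D3:**
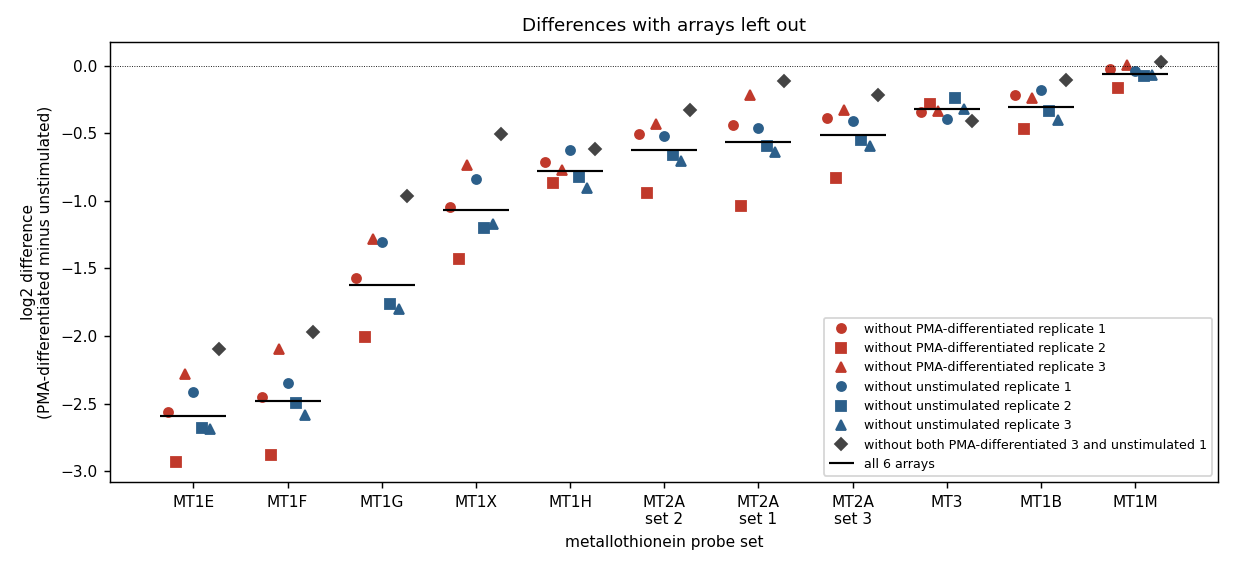
Log2 difference, PMA-differentiated minus unstimulated (vertical axis), of each metallothionein probe set with all 6 arrays (black lines) and with 1 or 2 arrays left out (symbols). Without PMA replicate 2 every difference except that of MT3 is more negative, and without PMA replicate 3 and unstimulated replicate 1 together MT1E and MT1F are still near −2 (−2.10 and −1.97).

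Copies outside the listed members gave values in the same direction. Of 6 further probe sets with a single metallothionein symbol, 4 passed and all 4 were lower in PMA-differentiated cells, beside 13.3% of all probe sets. They are copies of the chosen family, so the count is not independent of that choice. MT1P3, a pseudogene outside the chromosome 16 cluster, read 5.44, 6.13 and 5.21 with PMA, against 7.83, 7.46 and 7.18 without, and fell by 1.90 on the log2 scale (adjusted p = 0.00135). That is more than any member other than MT1E and MT1F. The transcribed pseudogenes MT1DP (−0.78 ± 0.22, adjusted p = 0.0371) and MT1JP (−0.49 ± 0.12, adjusted p = 0.0212) and the MT1H-like gene MT1HL1 (−0.43 ± 0.12, adjusted p = 0.0308) also passed, and each lost its call without some single arrays, with adjusted p up to 0.133. MT1HL1 also failed with quantiles repeated (adjusted p = 0.0704), median centring (0.0891) and cyclic loess (0.0766), and MT1DP with median centring (0.0611) and with every probe set tested (0.0561). Without both PMA replicate 3 and unstimulated replicate 1, MT1HL1 (adjusted p = 0.070), MT1JP (0.053) and MT1DP (0.053) lost their calls. MT1IP (−0.40 ± 0.18, adjusted p = 0.162) and MT4 (−0.23 ± 0.11, adjusted p = 0.164), a metallothionein of stratified epithelia, did not pass, though MT1IP did without PMA replicate 2 (adjusted p = 0.0471). Some of these copies were dim: MT1JP and MT4 lay below the array's median on all 6 arrays, and MT1P3 and MT1IP on 3. The probe set that carries both MT1L and NUTF2 read 7.07, 8.03 and 7.10 with PMA, against 9.53, 9.02 and 8.91 without, a difference of −1.76 ± 0.29 that cannot be assigned to either gene. Its SE is from the fit over every probe set of the table, since it was not in the fit over probe sets with 1 symbol. Except for the 3 MT2A probe sets, no 2 metallothionein probe sets had an accession record in common, which does not tell whether their probes match the same RNA.

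The genes that flank the cluster were mixed. Of the 3 nearest on each side, 3 passed, all lower with PMA (NUDT21, BBS2 and NUP93), beside 13.3% of all probe sets. BBS2, a subunit of the cilium cargo complex, was next to MT4 and fell most (−0.80 ± 0.13, adjusted p = 0.00301). NUP93, a nuclear pore scaffold protein next to MT1X, fell by 0.59 (SE 0.13, adjusted p = 0.0127), and the RNA processing factor NUDT21 by 0.36 (SE 0.09, adjusted p = 0.0167). The NUDT21 call was lost without PMA replicate 1 or 2 or unstimulated replicate 3 (adjusted p 0.0507 to 0.0651) and with arrays centred on their medians (0.0596). OGFOD1 (0.12 ± 0.17, adjusted p = 0.704), SLC12A3 (−0.18 ± 0.12, adjusted p = 0.339) and HERPUD1 (0.38 ± 0.12, adjusted p = 0.0508) did not pass. HERPUD1, a protein of endoplasmic reticulum quality control, did pass as higher with median centring (adjusted p = 0.0225), cyclic loess (0.0284), the dimmest probe sets left out (0.0461) and without PMA replicate 2 (0.0404). OGFOD1 passed as higher without both PMA replicate 3 and unstimulated replicate 1 (adjusted p = 0.0218). Within the cluster MT1M, next to MT1E, had the smallest difference of all, but it lay below the median of every array. Whether the differences followed position was not tested.

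**Figure D4:**
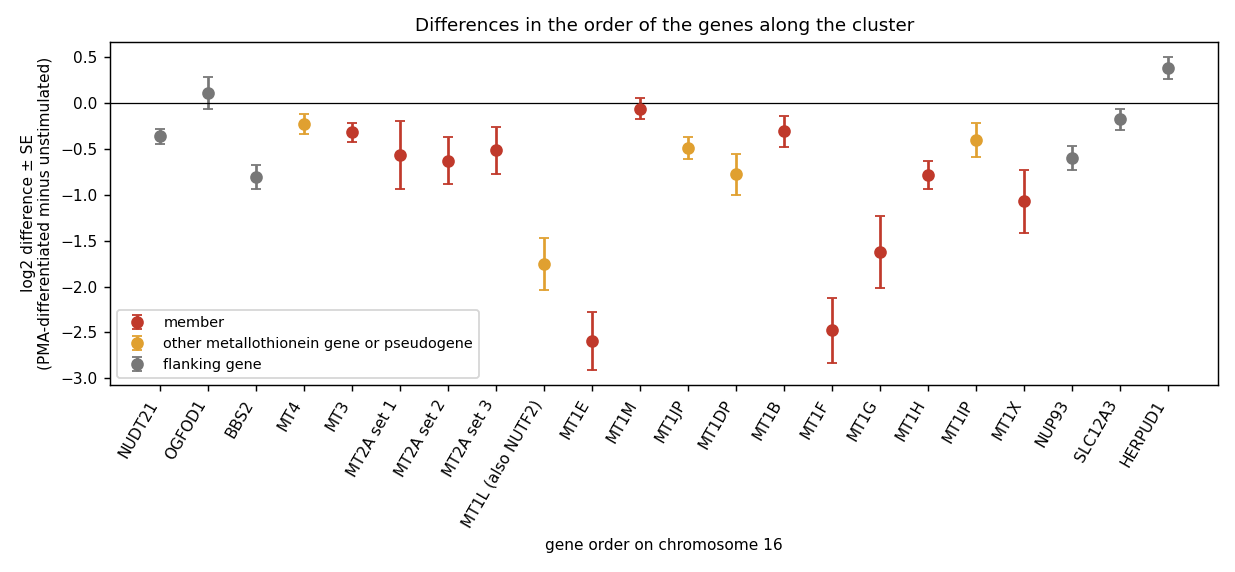
Log2 difference, PMA-differentiated minus unstimulated, ± SE (vertical axis), for probe sets placed by the order of their genes on chromosome 16, with members in red, other metallothionein genes and pseudogenes in orange and flanking genes in grey. Every probe set, the MT2A ones included, is placed by its annotated gene. MT1E, MT1F, MT1G and the probe set that carries both MT1L and NUTF2 lie below −1.5, and the members between them do not. That shared probe set is drawn at MT1L but cannot be assigned to either gene, and its SE alone is from the fit over every probe set of the table.

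Zinc transporters, which set the supply of the metal that metallothioneins hold, did not move as one. Of 24 measured, 5 rose and 1 fell, beside 12.9% and 13.3% of all probe sets, and the median log2 difference was 0.04. Among the 14 importers of the SLC39 family 2 rose. SLC39A13, an importer of the Golgi and its vesicles, read 10.42, 10.38 and 9.98 with PMA, against 8.20, 8.14 and 8.12 without (2.10 ± 0.13, adjusted p = 3.28e-05). SLC39A14, a cell surface importer of zinc and iron, read 10.66, 10.77 and 9.59 with PMA, against 9.42, 8.68 and 8.66 without (1.42 ± 0.33, adjusted p = 0.0170). Its lowest PMA array stood 0.17 above its highest unstimulated array, and the call was lost without PMA replicate 1 or 2 or unstimulated replicate 2 or 3 (adjusted p 0.0550 to 0.0730). None of the other 12 importers passed.

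Among the 10 exporters of the SLC30 family 3 rose and 1 fell. SLC30A1, the plasma membrane zinc exporter and itself a known target of MTF1, was the one that fell. It read 7.30, 7.37 and 7.90 with PMA, against 8.21, 8.05 and 8.26 without (−0.65 ± 0.16, adjusted p = 0.0225). The call was kept without PMA replicate 3 and was lost without any other single array (adjusted p 0.0506 to 0.0856). Its own promoter window held 2 metal response element matches; 7.51% of all windows held at least that many. The endosomal exporter SLC30A4 read 6.77, 6.76 and 5.87 with PMA, against 4.59, 5.29 and 4.88 without (1.55 ± 0.27, adjusted p = 0.00476). SLC30A4 was dim: it lay below the array's median on every unstimulated array and on PMA replicate 3. SLC30A3, the transporter of synaptic vesicles, rose as well (0.98 ± 0.21, adjusted p = 0.0107), as did the Golgi transporter SLC30A7 (0.43 ± 0.09, adjusted p = 0.0105), which is named because it completes the count.

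Genes of copper traffic gave 4 rises and no fall among 12 measured, beside 12.9% and 13.3% of all probe sets. Both members of the SLC31 family rose. The high-affinity copper importer SLC31A1 read 10.83, 10.94 and 10.67 with PMA, against 9.0, 9.26 and 9.40 without (1.60 ± 0.13, adjusted p = 0.000120). SLC31A2, its relative in endosomes and lysosomes, read 9.88, 9.75 and 9.28 with PMA, against 7.26, 7.45 and 7.38 without (2.27 ± 0.16, adjusted p = 5.96e-05). The groups of both genes lay more than 1 apart. The copper-exporting ATPase ATP7A (0.90 ± 0.23, adjusted p = 0.0242) and the copper chaperone ATOX1 (0.72 ± 0.19, adjusted p = 0.0270) rose less. ATP7A was low on unstimulated replicate 1 (6.76) beside 7.60 and 7.72 on the other unstimulated arrays. Without PMA replicate 1 or without PMA replicate 2 only SLC31A1 and SLC31A2 of the 12 passed, and ATOX1 also lost its call without unstimulated replicate 2 or 3. SOD1, the copper and zinc superoxide dismutase, differed by −0.02 ± 0.12, and the other 7 did not pass.

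Of 7 transcription factors known to act on metallothionein genes, 2 rose and 1 fell, beside 12.9% and 13.3% of all probe sets. MTF1, the metal sensor, read 9.28, 9.21 and 8.85 with PMA, against 9.26, 8.88 and 8.99 without. Its groups overlapped (0.07 ± 0.15, adjusted p = 0.802), and the sign of its difference turned without PMA replicate 1 (−0.015) or unstimulated replicate 2 (−0.014). NR3C1, the glucocorticoid receptor, read 9.77, 9.87 and 10.25 with PMA, against 8.77, 9.02 and 9.19 without (0.97 ± 0.16, adjusted p = 0.00338). NFE2L2, which encodes the oxidative stress factor NRF2, rose by 0.73 ± 0.14 (adjusted p = 0.00675). USF1, a factor that binds E-box motifs, fell by 0.36 (SE 0.09, adjusted p = 0.0242), a call that was lost with arrays centred on their medians (adjusted p = 0.0961) and without PMA replicate 2 or 3 or unstimulated replicate 1 or 3 (adjusted p 0.0549 to 0.0765). STAT3 (0.24 ± 0.14), HSF1 (−0.0087 ± 0.11, with a sign that turned under 2 scalings) and SP1 (−0.10 ± 0.10) did not pass.

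**Figure D5:**
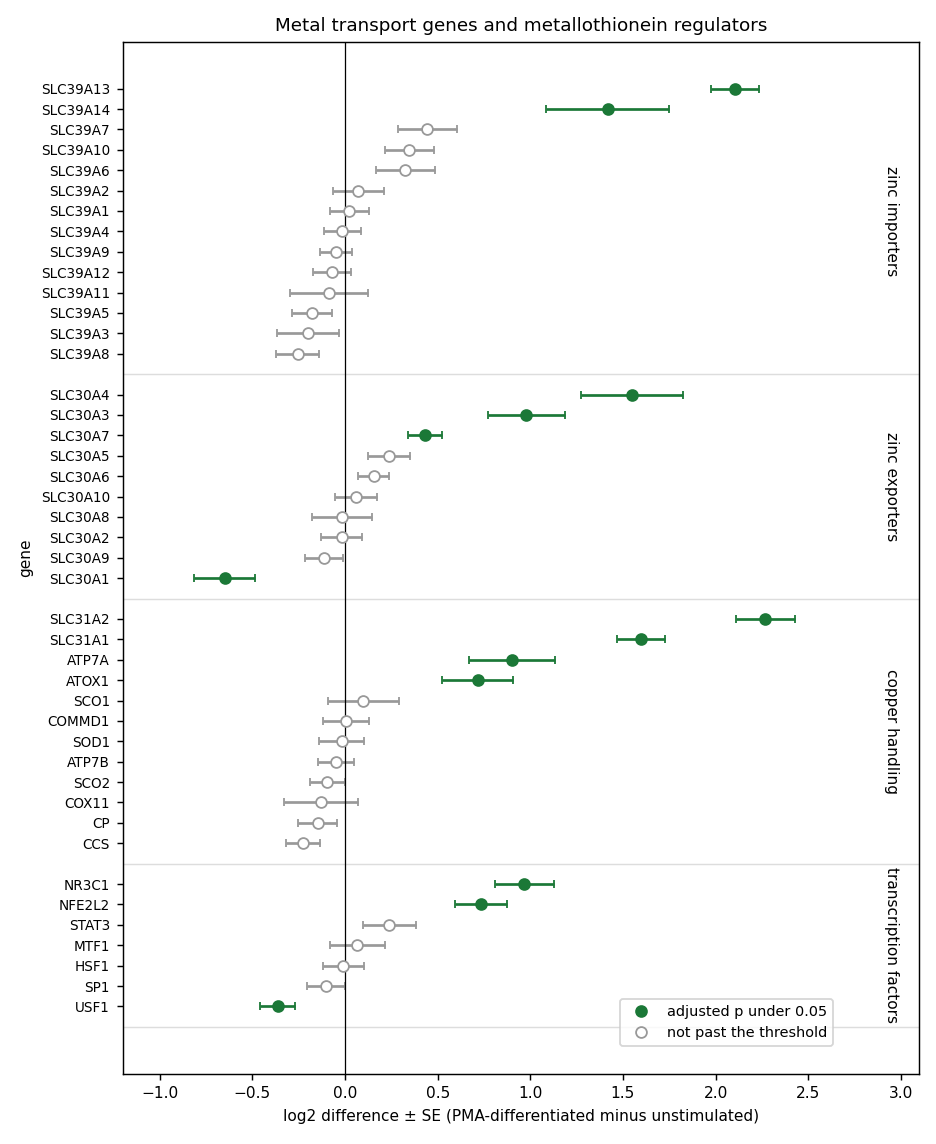
Log2 difference, PMA-differentiated minus unstimulated, ± SE (horizontal axis), of zinc importers, zinc exporters, copper genes and transcription factors (rows), filled where the adjusted p was under 0.05. SLC31A2 (2.27), SLC39A13 (2.10) and SLC31A1 (1.60) lie farthest to the right, and SLC30A1 (−0.65) lies farthest to the left.

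Over the 6 arrays, each probe set centred on its own mean, members lay between 0.18 (MT1X) and 0.81 (MT1E) from the members' mean profile, as a root mean square difference on the log2 scale. The 5 nearest genes outside the family were BCL11A, a zinc finger transcription factor (0.13), POLG2, the accessory subunit of the mitochondrial DNA polymerase (0.16), DPY19L2P1 (0.16), SKI, a co-repressor of TGF-beta signalling (0.17), and TECR, an enzyme of very long chain fatty acid synthesis (0.18, for 1 of its 2 probe sets). BCL11A read 6.54, 7.30 and 6.48 with PMA, against 8.24, 7.93 and 7.80 without. PMA replicate 2 was the highest PMA array and unstimulated replicate 1 the highest unstimulated array for this gene, as for most members. BCL11A was picked for its likeness over these same arrays, so the shared order is part of that choice and no further likeness. The likeness was measured on 6 arrays of 2 groups and is a description of these profiles.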

How the data were processed

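Total RNA of 6 THP-1 samples was biotin-labelled and hybridised to 1 Affymetrix array each, per the labels' protocols. The deposited log2 values were made by the authors with RMA and Partek, per the submitters' processing notes, which give no version. RMA corrects background, normalizes by quantiles and summarises probes, which compresses differences of dim probe sets. Scanner files and probe sequences were not used here. The precision is limited by the number of arrays, 3 a group.

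Names came from the platform annotation, with symbols updated by gene ID for 19429 of 19460 probe sets with 1 symbol. Another 1754 carried several symbols and 12083 were unnamed. Groups came from the titles. Differences came from lmFit and eBayes of limma 3.58.1 (R 4.3.3; group only, two-sided), with Benjamini-Hochberg adjustment over the 19460 and a threshold of 0.05. The median SE was 0.116. No dim probe set was left out. A listed gene was represented by its probe set with the highest mean. The code was checked on data drawn with known changes. The members and lists were chosen with earlier results of these data known. Named were all members and other metallothionein probe sets, the regulators, SLC30A1, up to 4 zinc or copper genes each way by size among those past the threshold without overlap, 3 flanking genes a side and the 5 nearest profiles.

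Alternatives covered scaling, dim probe sets, the probe sets tested, the variance model, a replicate block, the threshold and the arrays used. Same-numbered arrays deviated together with correlations of 0.18, −0.02 and 0.05, so the numbers were not taken as pairs. Promoter windows are RefSeq's (GRCh38.p14). Figures were drawn with matplotlib 3.10.9.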

Additional observations from a re-analysis of the deposited data

How the results depend on the processing

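The mean log2 difference of the metallothionein probe sets lay between −1.26 and −0.66 over the alternatives, its lowest without PMA replicate 2 and its highest without both PMA replicate 3 and unstimulated replicate 1. With all arrays it was −0.99, and the median −0.63. Leaving out single arrays gave −1.26 to −0.79. MT1M has no value where the dimmest 25% of probe sets were left out. The members past the threshold, a count whose alternatives were added after the data were seen, numbered 3 to 8 with single arrays left out and 5 under the replicate block. Under the replicate block 4973 of all probe sets passed, and no count named here moved by over 1.5 times. The block ended the call of MT1DP (adjusted p = 0.0532) and gave one to HERPUD1 (0.0388). At an adjusted p of 0.01, 2948 probe sets, 2 zinc transporters and 2 copper genes passed. With single arrays left out, 3460 to 5312 probe sets, 4 to 7 zinc transporters, 2 to 4 copper genes and 2 or 3 regulators passed. The sign of HSF1 turned with arrays centred on their medians (0.077), by cyclic loess (0.053), with array quality weights (0.072) and without both arrays that stood apart (0.10), and it ran from −0.070 to 0.087 with single arrays left out. With single arrays left out MTF1 ran from −0.015 to 0.197, negative without PMA replicate 1 and without unstimulated replicate 2 (−0.014), and OGFOD1 from −0.017 to 0.30. The cause was not tested for any of these. Each array's scaling moved the median of all differences by less than 0.1.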
